A study of Mus musculus with 6 samples.

Results

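The haemoglobin and erythroid genes described here are Hba-a1 and Hba-a2 (alpha chains), Hbb-bs and Hbb-bt (adult beta chains), Alas2, Slc4a1 and Ahsp. They were chosen by gene symbol from the deposited table. Of the 7 genes, 6 were measured, out of 54309 genes in the table, and Ahsp, the chaperone of free alpha chains, was not analysed here. The libraries come from dorsal root ganglia, where the cell bodies of sensory neurons lie next to the cord, at lumbar levels 4 to 6 of male C57bl/6 mice aged 8 to 10 weeks. Both groups had an adeno-associated virus injected into the sciatic nerves, AAV-GFP in the control group and AAV-Leptin-GFP, which adds leptin, in the leptin group, and 4 weeks later the dorsal columns, which hold the central branches of sensory axons, were cut. Ganglia were taken 24 hours after the cut, dissociated with enzymes and passed over an albumin step that enriches neurons. Each group has 3 libraries, and the labels give neither the promoter of the virus nor whether a library pools several mice.

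Haemoglobin is the oxygen carrier of red blood cells, built of alpha and beta globin chains that each hold a haem group. Alas2 encodes the erythroid form of the enzyme that starts haem synthesis, and Slc4a1 encodes band 3, the anion exchanger of the red cell membrane. Mature mammalian red cells have no nucleus, and the youngest circulating ones, the reticulocytes, still carry globin mRNA, so blood left in a dissected tissue brings these transcripts into its RNA. Globin transcripts have also been described in some neurons. In bulk RNA more cells of a type and more RNA per cell cannot be told apart, and these libraries do not show which cells carried the transcripts.

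The sequence in front of the members is shown as background on these genes. Any link between it and their levels was not tested. RefSeq tables for GRCm38.p6 held 5 of the 7 members. The 250 bases before the RefSeq start, which differs from the GENCODE gene limits given further on, are printed 5′ to 3′ on the strand of the gene, for Hba-a2 (chr11:32296242-32296491, plus strand), Hbb-bs (chr7:103827929-103828178, minus strand), Hbb-bt (chr7:103813924-103814173, minus strand) and Alas2 (chrX:150547167-150547416, plus strand). Capitals mark matches, on either strand, to 3 motifs that do not overlap here. The first is GATAA, known as the core of sites for factors such as Gata1. The second is CACCC, known from sites of factors such as Klf1. The last is CCAAT, an element in front of many genes.
Hba-a2: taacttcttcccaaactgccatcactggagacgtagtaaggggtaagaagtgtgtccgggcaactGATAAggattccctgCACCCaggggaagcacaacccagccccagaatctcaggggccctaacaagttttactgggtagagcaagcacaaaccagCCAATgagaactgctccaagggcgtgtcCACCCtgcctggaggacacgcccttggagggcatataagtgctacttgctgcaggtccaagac
Hbb-bs: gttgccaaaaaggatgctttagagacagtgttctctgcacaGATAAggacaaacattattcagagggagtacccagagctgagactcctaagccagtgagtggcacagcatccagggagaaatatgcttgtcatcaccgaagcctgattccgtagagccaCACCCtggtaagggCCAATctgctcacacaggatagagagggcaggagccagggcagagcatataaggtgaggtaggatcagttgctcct
Hbb-bt: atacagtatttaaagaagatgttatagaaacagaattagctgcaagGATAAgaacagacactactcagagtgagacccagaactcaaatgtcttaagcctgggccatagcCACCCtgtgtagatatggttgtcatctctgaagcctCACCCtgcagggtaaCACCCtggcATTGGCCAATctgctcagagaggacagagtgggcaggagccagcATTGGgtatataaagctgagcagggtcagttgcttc
Alas2: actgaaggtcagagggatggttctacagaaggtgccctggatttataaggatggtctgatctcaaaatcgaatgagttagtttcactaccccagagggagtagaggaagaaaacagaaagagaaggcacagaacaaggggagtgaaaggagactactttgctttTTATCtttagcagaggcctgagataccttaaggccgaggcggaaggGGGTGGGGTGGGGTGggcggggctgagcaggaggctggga

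GATAA was found once in each of the 5 windows, 185 bases before the start in Hba-a2, 209 in Hbb-bs, 204 in Hbb-bt and, on the other strand, 86 in Alas2. Of 32817 mouse windows of the same length, 22.6% hold GATAA. Matches to CACCC were found 2 times in Hba-a2, 1 time in Hbb-bs, 3 times in Hbb-bt and 3 times in Alas2, and 52.0% of all windows hold it. CCAAT stands 91 bases before the start in Hba-a2, 76 in Hbb-bs and 75 in Hbb-bt, where the other strand adds 2 more matches, 1 of them directly beside it, and 33.8% of all windows hold it. The 4 globin windows hold all 3 motifs, as do 3.45% of all windows, whereas the Alas2 window has no match to CCAAT. The Hba-a1 window is not printed because 238 of its 241 stretches of 10 bases recur in the Hba-a2 window. A match is a description of the letters and shows no binding.

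The alpha genes lie together on chromosome 11 of GRCm38, Hba-a1 at 32283511 to 32284465 and Hba-a2 at 32296489 to 32297298, with 12023 bases between them. On chromosome 7 Hbb-bt lies at 103812524 to 103813996 and Hbb-bs at 103826534 to 103828096, with 12537 bases between them. Alas2 is on chromosome X (150547375 to 150570638) and Slc4a1 on chromosome 11 (102348824 to 102366203). Nearly all globin signal was listed on the spliced protein-coding transcript of 3 exons, 97.1% of the TPM of Hba-a1, 100% of Hba-a2, 99.9% of Hbb-bs and 100% of Hbb-bt. The retained-intron transcript of Hba-a1 was at 1.44, 0.572 and 0 TPM in control replicates 1 to 3 and at 0.714, 0 and 9.61 TPM in leptin replicates 1 to 3, while that of Hba-a2, equally long at 494 nt, was listed at 0 in every library. Of the stretches of 31 bases in the main Hba-a2 transcript, 91.0% also occur in that of Hba-a1, and 66.9% of those in Hbb-bs also occur in Hbb-bt. The division of reads within each pair is therefore less certain than their sum. No stretch of 31 bases was shared between Hba-a1 and Hbb-bs.

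The values are TPM, length-corrected shares of the transcripts in a library. The 6 libraries listed 55476 to 64423 transcripts above 0 and 14717 to 15285 genes at 1 TPM or more. Read depth is unknown, so counting error and detection limits cannot be given. Sensory neuron markers summed to 27910 to 29190 TPM over 14 genes in controls and 26780 to 27340 TPM in the leptin group. Leptin replicate 3 stood apart from the other 5 libraries in every member measured, and the group ratios and fold changes of the members are given with and without it.

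Haemoglobin transcripts were most abundant in leptin replicate 3. Summed over the 4 globin genes, the level was 256, 169 and 171 TPM in control replicates 1 to 3, and 238, 372 and 1718 TPM in leptin replicates 1 to 3. Leptin replicate 1 lay inside the control range, replicate 2 above it, and replicate 3 at 4.62 times the next highest library. The group means were 198.5 ± 49.6 TPM (SD, n = 3) in controls and 776 ± 818 TPM (SD, n = 3) in the leptin group, a ratio of 3.91. Without leptin replicate 3 the ratio was 1.54. Globin transcripts made up 0.0169% to 0.0372% of all TPM in the 5 other libraries and 0.172% in leptin replicate 3. No test was made on the sum, because the genes were chosen with earlier results of these data known.

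**Figure D1:**
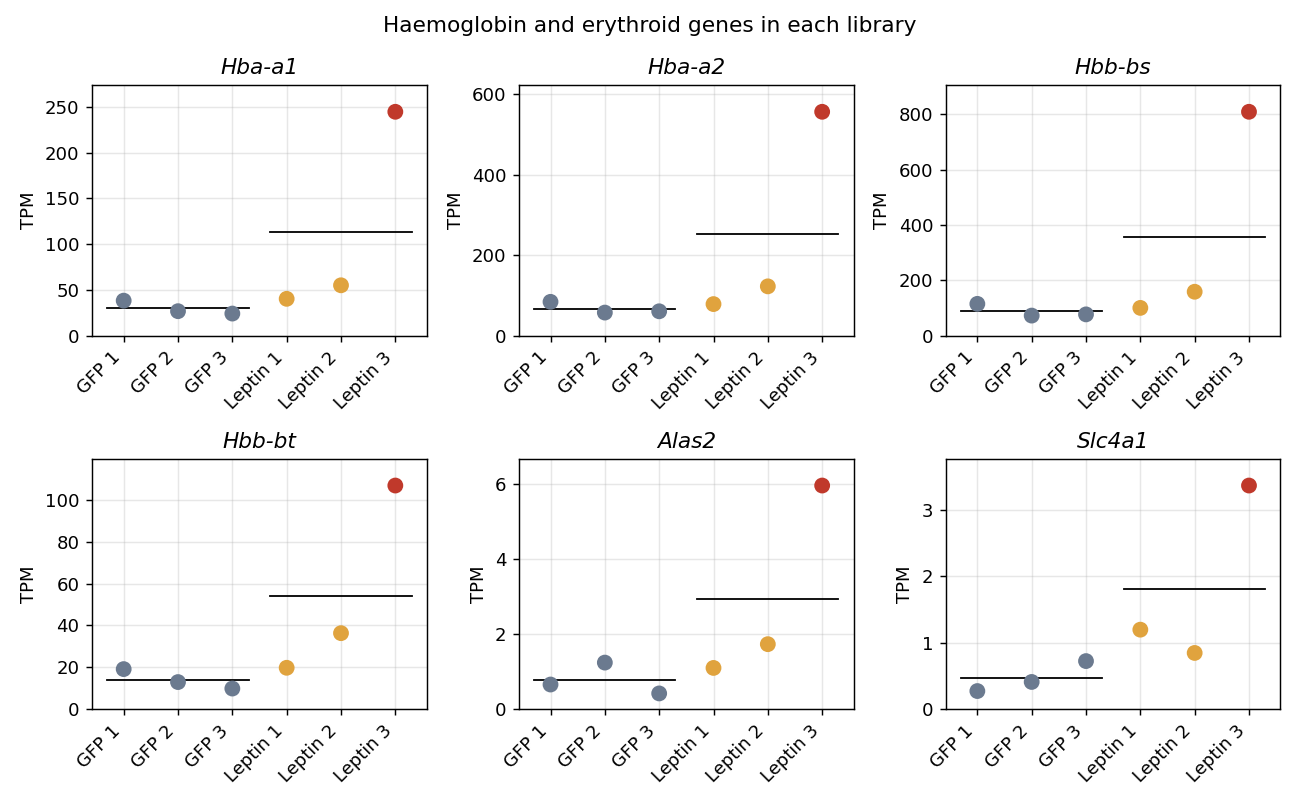
TPM of each measured member (y axis, a scale per panel) in the 3 control libraries (grey) and leptin replicates 1 and 2 (orange) and 3 (red), with black lines at the group means. Leptin replicate 3 is the highest point in all 6 panels, and the mean of its group lies above its other 2 points in each.

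The adult beta chain gene Hbb-bs (ENSMUSG00000052305) stood at 115, 72.1 and 76.5 TPM in control replicates 1 to 3 and at 100, 158 and 809 TPM in leptin replicates 1 to 3. The groups overlapped, since leptin replicate 1 was below control replicate 1. By TPM it ranked between place 1200 and place 2647 of 54309 genes in the 5 other libraries and at place 130 in leptin replicate 3. The log2 fold change on the log2(TPM + 1) scale was 1.44 (SE 0.69, limma adjusted p = 0.310). The other adult beta chain gene, Hbb-bt (ENSMUSG00000073940), was at 19.2, 12.99 and 9.90 TPM in controls and 19.8, 36.3 and 107 TPM in the leptin group, in the same order of replicates. Its groups did not overlap, but leptin replicate 1 was within 1 TPM of control replicate 1. The log2 fold change of Hbb-bt was 1.59 (SE 0.55, limma adjusted p = 0.179).

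Among the alpha chain genes, Hba-a2 (ENSMUSG00000069917) stood at 83.9, 57.1 and 60.3 TPM in control replicates 1 to 3 and at 78.3, 122 and 557 TPM in leptin replicates 1 to 3. The groups overlapped in control replicate 1 and leptin replicate 1, and the log2 fold change was 1.39 (SE 0.64, limma adjusted p = 0.291). Hba-a1 (ENSMUSG00000069919) was at 38.2, 26.6 and 24.0 TPM in controls and 40.2, 54.97 and 245 TPM in the leptin group. Its groups did not overlap, by a margin of about 2 TPM between control replicate 1 and leptin replicate 1, and the log2 fold change was 1.46 (SE 0.61, limma adjusted p = 0.248). With each pair summed to 1 feature in the whole table, the log2 fold change was 1.42 (SE 0.63, limma adjusted p = 0.276) for alpha and 1.47 (SE 0.67, limma adjusted p = 0.286) for beta.

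The 2 erythroid genes outside the globin family were also highest in leptin replicate 3, at far lower levels. Alas2 (ENSMUSG00000025270) stood at 0.660, 1.24 and 0.423 TPM in control replicates 1 to 3 and at 1.10, 1.74 and 5.96 TPM in leptin replicates 1 to 3. The groups overlapped, with control replicate 2 above leptin replicate 1, and the log2 fold change was 0.97 (SE 0.44, limma adjusted p = 0.279). Of the 1.24 TPM in control replicate 2, 0.871 TPM was listed on a retained-intron transcript. In control replicate 3, 0.272 TPM was listed on another protein-coding transcript. On the main protein-coding Alas2 transcript alone, a choice made after its values were seen, control replicates 1 to 3 were at 0.660, 0.372 and 0.151 TPM and leptin replicates at 1.10, 1.74 and 5.96 TPM, with no overlap. Of all tested genes, 13.3% had every leptin library above every control library. Slc4a1 (ENSMUSG00000006574) was at 0.274, 0.411 and 0.725 TPM in controls and 1.20, 0.847 and 3.36 TPM in the leptin group. Its groups did not overlap, and the log2 fold change was 0.84 (SE 0.34, limma adjusted p = 0.234). Slc4a1 passed the filter of the test, a mean of 1 TPM or more, through leptin replicate 3: its mean over all 6 libraries was 1.14 TPM and over the other 5 it was 0.691 TPM. For Alas2 these means were 1.85 and 1.03 TPM. Alas2 was above Slc4a1 in 4 of the 6 libraries and below it in control replicate 3 and leptin replicate 1, so the order of their levels was not fixed.

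Of the 6 measured members, 0 passed limma's test at an adjusted p under 0.05, beside 1.54% of the 15108 tested genes called higher and 0.0662% called lower. At an unadjusted limma p under 0.05, 3 were higher (Hba-a1, Hbb-bt and Slc4a1), beside 11.3% of all tested genes. The same 3 members had every leptin library above every control library, a pattern shown by 13.3% of all tested genes. Slc4a1 was in the tested set only through its value in leptin replicate 3, so nothing is read from these counts. All 6 had a log2 fold change above 0, as did 7546 of the 15108 tested genes. The median was 1.42, against -0.00016 over all tested genes. Nothing is read from this count either, since leptin replicate 3 was the highest library for all 6. The group differences were thus not called after adjustment over all tested genes, and within the leptin group the means ± SD (n = 3) were 356 ± 394 TPM for Hbb-bs and 54.3 ± 46.2 TPM for Hbb-bt.

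**Figure D2:**
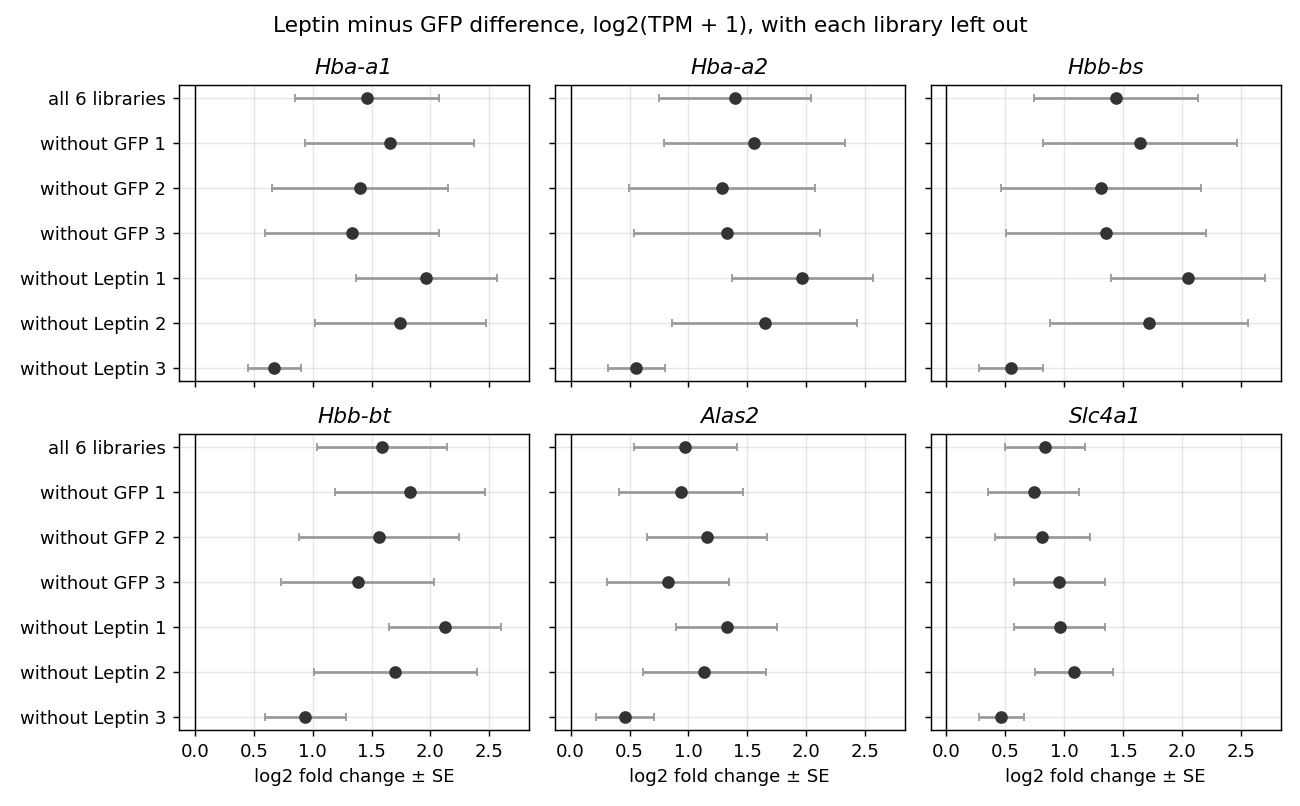
Log2 fold change of each member, leptin minus control group on the log2(TPM + 1) scale (x axis, points with SE), with all libraries and with each library left out (y axis). Without leptin replicate 3 all 6 points fall below 1, and their error bars are shorter than in the fits that include it.

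Leaving out leptin replicate 3 lowered the fold change of every member. The log2 fold change of Hbb-bs went from 1.44 to 0.55 (SE 0.27, limma adjusted p = 0.367), that of Hba-a2 from 1.39 to 0.56 (SE 0.24, adjusted p = 0.311) and that of Hba-a1 from 1.46 to 0.68 (SE 0.23, adjusted p = 0.220). For Hbb-bt it was then 0.94 (SE 0.34, adjusted p = 0.246), for Alas2 0.46 (SE 0.25, adjusted p = 0.405) and for Slc4a1 0.47 (SE 0.19, adjusted p = 0.294). The 2 other leptin libraries thus still averaged above the controls, at 1.47 times the control mean TPM for Hbb-bs, 1.5 for Hba-a2, 1.61 for Hba-a1, 2.0 for Hbb-bt, 1.83 for Alas2 and 2.18 for Slc4a1. None of the 6 members passed the threshold with any library left out. Without leptin replicate 1, the treated library with the least haemoglobin, log2 fold changes were largest for the 4 globin genes and Alas2, 2.05 for Hbb-bs and 2.13 for Hbb-bt (adjusted p = 0.140).

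The make-up of the globin transcripts changed little while their total varied 10.2-fold between libraries. The alpha to beta ratio of TPM was 0.913, 0.984 and 0.976 in control replicates 1 to 3 and 0.988, 0.911 and 0.875 in leptin replicates 1 to 3. Its group means were 0.958 ± 0.0391 (SD, n = 3) and 0.925 ± 0.0579 (SD, n = 3), a difference smaller than the SD of either group. Hbb-bs held 42.0% to 47.1% of the globin TPM over the 6 libraries, Hba-a2 32.4% to 35.3%, Hba-a1 14.1% to 16.9% and Hbb-bt 5.80% to 9.77%. The gene order was therefore Hbb-bs, Hba-a2, Hba-a1, Hbb-bt in every library, on a scale corrected for length, although between libraries the control ranges of Hba-a2 (57.1 to 83.9 TPM) and Hbb-bs (72.1 to 115 TPM) overlapped. Hbb-bt had the most variable share, from 5.80% in control replicate 3 to 9.77% in leptin replicate 2, and its share of 6.21% in leptin replicate 3 was the second lowest.

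**Figure D3:**
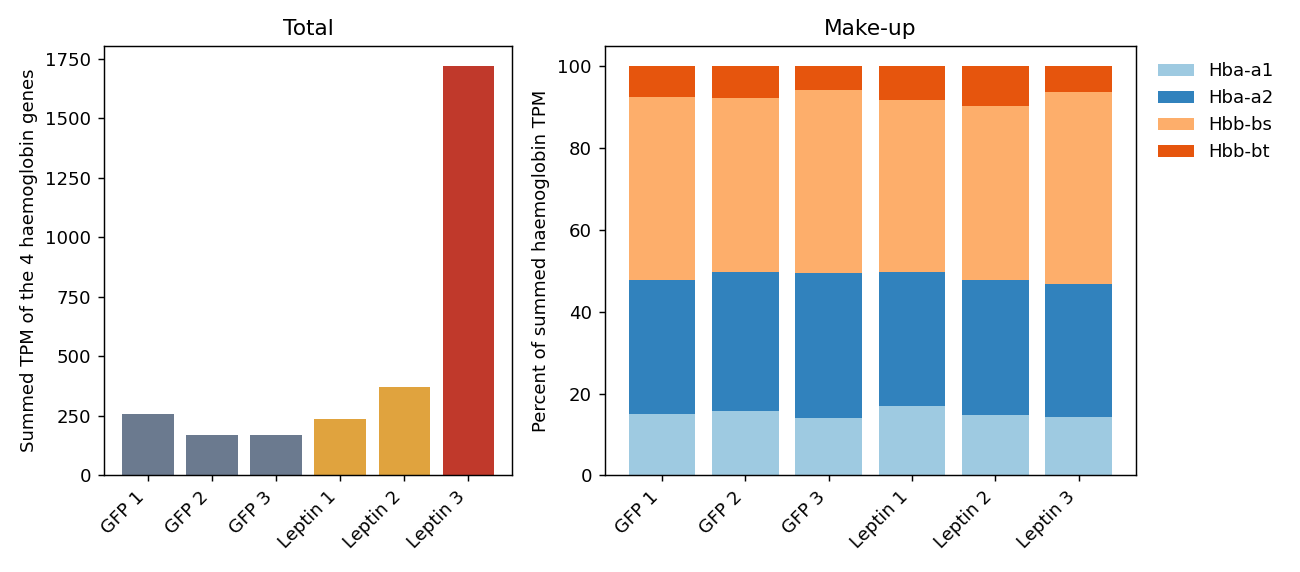
Left, summed TPM of the 4 haemoglobin genes in each library; right, the percent of that sum held by each gene. The total runs from 169 to 1718 TPM, whereas Hbb-bs stays between 42.0% and 47.1% and Hba-a2 between 32.4% and 35.3%.

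Relative to globin the 2 other erythroid genes were more variable. Alas2 stood at 2.47 to 7.36 TPM per 1000 TPM of globin transcripts over the 6 libraries, and at 3.47 in leptin replicate 3. Slc4a1 stood at 1.07 to 5.02 TPM per 1000, and at 1.96 in leptin replicate 3. Both ratios in that library lay within the range of the other 5, so the 3 kinds of transcript were high together there. Against the mean of the other 5 libraries, leptin replicate 3 was 7.76 times as high for Hbb-bs, 6.93 for Hba-a2, 6.65 for Hba-a1, 5.44 for Hbb-bt, 5.77 for Alas2 and 4.87 for Slc4a1.

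The gap to the next library was compared with that of other genes. All 6 measured members reached at least 2 times the next highest library in leptin replicate 3, as did 0.563% of tested genes (85 of 15108) and 8.91% of the genes above 0 with a mean under 1 TPM, the level at which Slc4a1 stood in the other 5 libraries. In the other libraries the same measure held for 14 to 40 genes. Among the 9384 tested genes averaging 10 TPM or more, it held for 10 genes, of which 4 were the haemoglobin genes. The others, named after their values were seen, were Gm10222, the microRNA gene Mir341 and 4 copies of the small nuclear RNA U6 that share 1 set of values. In the other 5 libraries Gm10222 was at 0 and Mir341 at no more than 8.39 TPM. These 2 genes thus reached the mean of 10 TPM through leptin replicate 3. These counts describe the group and are no separate support, since the spread of blood genes between libraries was known when the members were chosen.

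**Figure D4:**
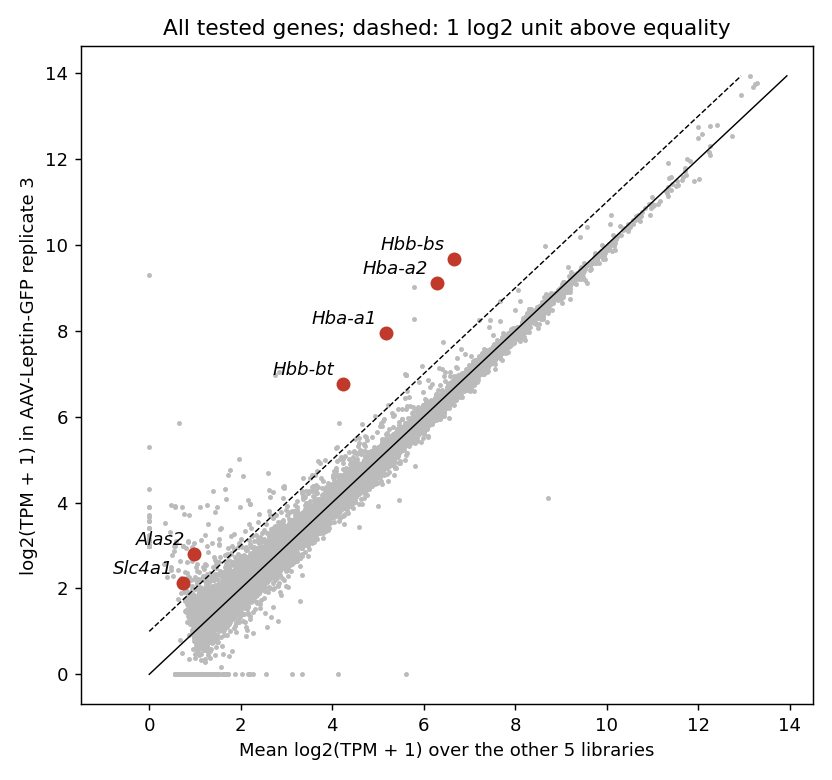
Each tested gene by its mean log2(TPM + 1) over the other 5 libraries (x axis) and its value in leptin replicate 3 (y axis), with the 6 measured members in red, equality as a solid line and 1 log2 unit above it dashed. All members lie above the dashed line, and the 4 haemoglobin genes lie farthest from it among the members.

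Other globins did not follow. The embryonic genes Hba-x, Hbb-bh1 and Hbb-y, together with Hbb-bh2, were listed at 0 in all libraries. Hbq1b, a theta-type globin of the alpha cluster, stood at 10.4 ± 1.70 TPM (SD, n = 3) in controls and 9.97 ± 1.71 TPM in the leptin group (log2 fold change -0.06, limma adjusted p = 0.870), and its copy Hbq1a at 1.29 ± 0.325 and 1.51 ± 0.253 TPM (0.14, limma adjusted p = 0.723). Cytoglobin, Cygb, a globin of fibroblast-type and other cells, stood at 46.1 ± 2.98 and 46.5 ± 0.780 TPM (log2 fold change 0.013, limma adjusted p = 0.938). Neuroglobin, Ngb, stood at 4.06 ± 0.532 and 4.11 ± 0.490 TPM (log2 fold change 0.014, limma adjusted p = 0.972). The signs for Hbq1b, Cygb and Ngb turned under some alternatives. Myoglobin, Mb, was above 0 in control replicate 3 alone, at 0.440 TPM. None of the 9 was highest in leptin replicate 3, where Hbq1b (8.33 TPM) and Ngb (3.59 TPM) were at their lowest of the 6 libraries.

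Of 28 other genes for red cell membrane proteins, enzymes and late erythroid products, 18 were tested and 0 passed limma's test in either direction (2 higher and 2 lower at an unadjusted p under 0.05, beside 11.3% and 8.19% of all tested genes, median log2 fold change -0.04). Many of these, such as Ubb, Cd24a and Ank1, are expressed by other cells as well, so their sum says little of red cells. Leptin replicate 3 was the highest library for 4 of the 18 tested genes, beside 11.7% of all tested genes, and for 8 of the 10 that averaged under 1 TPM, beside 22.9% of all genes at such levels. Ermap, a red cell membrane protein gene named after its values were seen, was at 0.677 TPM there, 3.23 times the next highest library. At least 2 times the next highest there was reached by 2 of the 28, both averaging under 1 TPM, a level at which 8.91% of genes above 0 did so.

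The erythroid transcription factors Gata1 and Klf1 were near 0. Gata1, the master regulator of red cell development, did not exceed 0.101 TPM in any library, and Klf1, the activator of adult beta globin, did not exceed 0.364 TPM, its value in leptin replicate 3 and 2.06 times the next highest library. Exact two-sided permutation tests gave p = 0.2 for Gata1 and p = 0.7 for Klf1, where 0.1 is the smallest that 3 libraries against 3 can give, so that neither could pass 0.05. Of 18 regulators, 8 were tested and 0 passed limma's test (2 higher and 0 lower at an unadjusted p under 0.05, beside 11.3% and 8.19% of all tested genes, median log2 fold change 0.09). Leptin replicate 3 was the highest library for 2 of the 8 tested regulators, beside 11.7% of all tested genes. It was highest for 6 of the 10 that averaged under 1 TPM, beside 22.9% of all genes at such levels. There 5 of the 18 reached at least 2 times the next highest library. Their values there were 2.31 TPM for Lyl1, 0.364 for Klf1, 0.769 for Trim10, 0.553 for Myb and 0.440 for Gfi1b. The same held for 0.563% of tested genes and 8.91% of genes above 0 with a mean under 1 TPM. Lyl1 passed the filter of the test through leptin replicate 3, with a mean of 0.766 TPM over the other 5. Tfr2, the second transferrin receptor, had the smallest p of the list, with 2.60 ± 0.240 and 4.08 ± 0.574 TPM (SD, n = 3; log2 fold change 0.49, limma adjusted p = 0.109), and was highest in leptin replicate 1 rather than 3.

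For genes of haem synthesis leptin replicate 3 was the highest library in 2 of 13, beside 11.7% of all tested genes. Alas1, the form of the Alas2 enzyme that all cells use, stood at 83.6 ± 1.5 TPM (SD, n = 3) in controls and 78.6 ± 3.18 TPM in the leptin group (log2 fold change -0.09, limma adjusted p = 0.374), and leptin replicate 3 was its lowest library at 75.0 TPM. Of the 13 genes 0 passed limma's test (2 higher and 2 lower at an unadjusted p under 0.05, beside the same 11.3% and 8.19%, median log2 fold change -0.05). The closest was Slc25a37, mitoferrin 1, which brings iron into mitochondria and is abundant in erythroid cells. It was at 8.41, 6.92 and 6.79 TPM in control replicates 1 to 3 and at 10.9, 11.7 and 10.8 TPM in leptin replicates 1 to 3 (log2 fold change 0.54, SE 0.10, limma adjusted p = 0.0517). The 3 values of the leptin group were close together, unlike those of the members, and the gene passed the threshold in 4 alternatives, among them the fit without control replicate 1 (adjusted p = 0.0267).

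Of 20 genes for haem breakdown, scavenging and iron handling, 0 passed limma's test (3 higher and 4 lower at an unadjusted p under 0.05, beside the same 11.3% and 8.19%, median log2 fold change -0.05). Leptin replicate 3 was the highest library for 6 of the 20, beside 11.7% of all tested genes. Hp, which encodes haptoglobin, the plasma binder of free haemoglobin, had the smallest p, at 16.4, 27.6 and 21.6 TPM in control replicates 1 to 3 and 30.8, 32.2 and 40.1 TPM in leptin replicates 1 to 3 (log2 fold change 0.65, SE 0.18, limma adjusted p = 0.115). Hpx, the haem binder haemopexin, named after its values were seen, was also highest in leptin replicate 3, at 45.9 TPM against 15.0 to 35.0 TPM elsewhere (log2 fold change 0.67, limma adjusted p = 0.204). Tfrc, the transferrin receptor that erythroid precursors use to take up iron, was at 107 ± 7.60 TPM in controls and 85.1 ± 11.2 TPM in the leptin group (-0.33, limma adjusted p = 0.133). Hmox1, which breaks down haem and which was chosen after its values were seen, had its lowest value, 18.8 TPM, in leptin replicate 3, against 21.9 to 23.8 TPM elsewhere.

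Markers of other blood cells did not follow haemoglobin from library to library. Neutrophil markers (14 genes) summed to 216, 534 and 156 TPM in control replicates 1 to 3 and to 336, 291 and 368 TPM in leptin replicates 1 to 3. They were thus highest in control replicate 2, the library with the least haemoglobin. Platelet markers (14 genes) summed to 28.3 to 30.4 TPM in controls and 23.7 to 29.2 TPM in the leptin group. Their sum was lowest in leptin replicate 3, where Gp1bb was at its lowest (4.71 TPM) and Itga2b at its highest (6.74 TPM). Treml1 was the 1 platelet gene of the list at 0 in every library, and Pf4 ran from 0.610 to 4.09 TPM. Lymphocyte markers (14 genes) summed to 4.86 to 7.57 and 5.36 to 7.28 TPM, and monocyte markers (10 genes) to 140.6 to 199.4 and 129.6 to 154 TPM. Of the monocyte sum, Ly86 alone gave 96.05 to 175.8 TPM over the 6 libraries. Such sums weigh abundant genes most and do not count cells. No gene of these 4 lists passed limma's test. The smallest p among the tested genes of each was for Mpo (log2 fold change 0.68, limma adjusted p = 0.268), the glycoprotein gene Gp1bb (-0.64, limma adjusted p = 0.0898), Cd79a (0.19, limma adjusted p = 0.699) and Fn1 (0.70, limma adjusted p = 0.0535). Mpo passed the filter of the test through leptin replicate 3, with a mean of 0.843 TPM over the other 5 libraries.

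Sums of vessel and ganglion cell markers in leptin replicate 3 lay below the mean of the other 5 libraries. For satellite glia, myelinating Schwann cells and sensory neurons, every leptin library was below every control library. Satellite glia summed to 8283 to 8952 TPM (leptin) and 9222 to 10340 TPM (control), Schwann cells to 846 to 927 and 962.5 to 997 TPM. At an unadjusted limma p under 0.05, 2 of 8, 2 of 8 and 5 of 14 genes were lower, beside 8.19% of tested genes. In each of them 1 gene was higher, beside 11.3%. Endothelial markers (14 genes) summed to 109 to 120 TPM in controls and 92.8 to 113 TPM in the leptin group, and the sum in leptin replicate 3 was 0.977 times the mean of the other 5 libraries. For mural cells (10 genes) that ratio was 0.899, for macrophages (10 genes) 0.959, for satellite glia (8 genes) 0.876, for myelinating Schwann cells (8 genes) 0.886 and for sensory neurons (14 genes) 0.958, beside 7.11 for the 6 measured members. Among these lists Egr2, an immediate early gene as well as a Schwann cell regulator, alone passed limma's test (4.71 ± 0.532 and 13.04 ± 2.04 TPM, SD, n = 3; log2 fold change 1.29, adjusted p = 0.0155). Its call was lost with no filter on low values (adjusted p = 0.0661) and without control replicate 2 or 3 or leptin replicate 2 or 3 (adjusted p = 0.0645 to 0.125). The other smallest p values were for Egfl7 (-0.22, limma adjusted p = 0.112), Rgs5 (-0.27, 0.413), Cx3cr1 (-0.26, 0.467), Fabp7 (-0.53, 0.106), Calca (-0.36, 0.0603) and, in the red cell list, Ubb (-0.16, 0.0630). Calca passed the threshold with a filter at 5 TPM (adjusted p = 0.0476) and Fn1 with mitochondrially encoded genes removed (adjusted p = 0.0437). Whether any of these cells bear on the haemoglobin values was not tested.

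**Figure D5:**
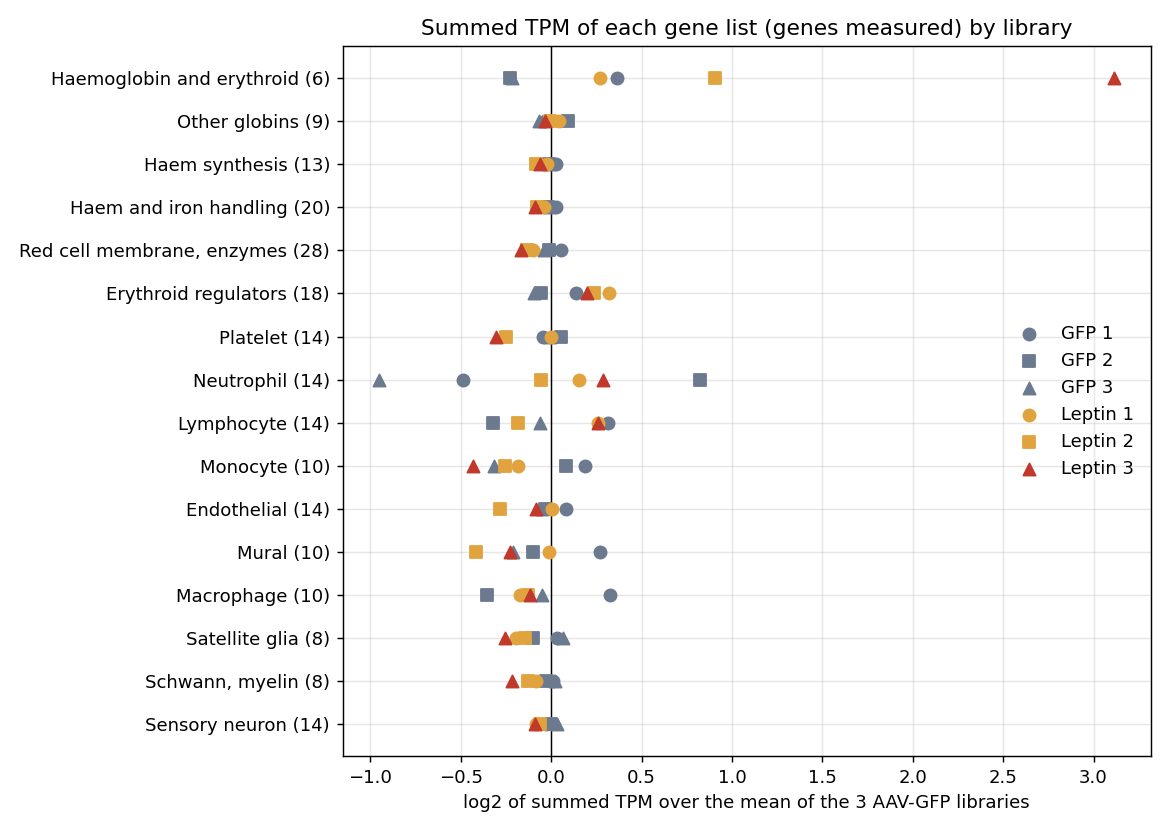
Summed TPM of each gene list in each library as log2 of its ratio to the mean of the 3 control libraries (x axis), with the number of measured genes in brackets (y axis). The haemoglobin and erythroid genes reach 3.11 in leptin replicate 3, whereas every other list stays between -0.95 and 0.82 in all libraries.

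Outside the members, the tested genes whose log2(TPM + 1) over the 6 libraries was most like that of summed haemoglobin were Mafa (Pearson r = 0.986, Spearman rho = 0.943), Calb1 (0.983, 0.829), Haao (0.983, 1.00), Tpmt (0.983, 0.943), Man1a (0.976, 0.829) and Tdp1 (0.971, 0.771). Haao passed the filter of the test through leptin replicate 3, with a mean of 0.907 TPM over the other 5 libraries. The 6 genes resembled summed haemoglobin in order but not in size. In leptin replicate 3 they stood at 1.14 to 1.69 times their next highest library, against 2.81 to 5.11 times for the members. Mafa, a transcription factor of some sensory neurons, ran from 17.8 to 24.0 TPM. These r, taken over 6 libraries and 15102 genes, are a description only, and leptin replicate 3 is the highest point for all 6 genes.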

How the data were processed

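TPM values of 140789 Ensembl transcripts in 6 libraries were deposited by the authors. Per the submitters' processing notes, the tools were Salmon 1.6.0, DESeq2 1.34.0, Trim Galore 0.6.6 and FastQC 0.11.9 (roles not stated) and the builds GRCm38 and mm10. Stranded libraries were made from mRNA, per the labels' protocols. Which annotation release was used is not stated there, and coordinates are those of GENCODE M21 (GRCm38) by gene identifier.

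Transcript TPM were summed by gene identifier. Genes averaging 1 TPM or more over the 6 libraries (15108) entered limma 3.58.1 as log2(TPM + 1) (R 4.3.3, mean-variance trend, two-sided, no covariates), with Benjamini-Hochberg adjustment over all of them and a threshold of 0.05. Every adjusted p is limma's. TPM keeps no depth, so no counting interval is given. The scale understates changes of low genes. The test was checked on simulated data. Nothing says that libraries came from separate animals, so p-values measure the spread between libraries, which may be technical. The members and the 15 other lists were chosen with earlier results of these data known. Named genes are the members, the other globins, Gata1, Klf1, Tfrc and Alas1, from each other list up to 3 called genes or else the gene with the smallest p, and the 6 genes most like summed haemoglobin. A further gene under this rule is not reported here. Alternatives changed the pseudocount, filter, normalization, trend, block, paralog handling and libraries used.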

Additional observations from a re-analysis of the deposited data

How the results depend on the processing

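In 16 alternatives to the gene test, none of the measured members passed the threshold, and all tested kept a log2 fold change above 0 (Alas2 and Slc4a1 were not tested at 5 TPM). Their adjusted p ranged from 0.140 to 0.555. The ratio of summed haemoglobin was 1.54 to 5.26 with each library left out (alpha 1.53 to 5.06, beta 1.55 to 5.46), and that of the alpha to beta ratio 0.932 to 0.991. Over all tested genes, against 233 called higher and 10 lower, no filter gave 4 and 0, a filter at 5 TPM 270 and 27, no mean-variance trend 35 and 0, quantile normalization 255 and 16, and removal of mitochondrially encoded genes 334 and 3. Leaving out 1 library gave 3 to 409 higher and 0 to 11 lower, and leaving out leptin replicate 3 with no filter, an alternative chosen after seeing the data, gave 11 and 0. Of the listed genes other than the members 1 was called, against 2 with a pseudocount of 0.1, 0 with no filter, 3 with a filter at 5 TPM, 2 under quantile normalization, 3 with mitochondrially encoded genes removed, and 0 to 2 with a library left out. The cause was not tested. Signs turned for Cygb (-0.00059 under quantile normalization, -0.018 to 0.064 with a library left out, -0.00096 without leptin replicate 3 with or without the filter), Hbq1b (-0.17 to 0.051 with a library left out, 0.051 without leptin replicate 3 with or without the filter), Man1a (-0.0050 under quantile normalization) and Ngb (-0.13 under quantile normalization, -0.052 to 0.095 with a library left out).

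Equal replicate numbers showed no pairing in the values: deviations of same-numbered libraries correlated at 0.034, -0.070 and -0.024 over the tested genes. For libraries with unlike numbers the range was -0.082 to 0.112. Whether same-numbered libraries were prepared together cannot be told from these correlations. With the replicate number as a block 74 genes were called higher and 0 lower, 1 listed gene and 0 members.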
